A study of Mus musculus with 6 samples.

Results

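Potassium channel genes were taken as the genes whose names consist of Kcn, a family letter code and a number, and whose mean deposited count over the 6 libraries of the study was at least 10. The rule names 92 of the 51826 genes in the deposited table, and 81 of them reached the mean count. They comprise 28 voltage-gated pore-forming genes, 9 so-called silent voltage-gated genes that only modify other subunits and 12 auxiliary genes. The rest are 8 genes of the calcium- or sodium-activated families, 13 inward rectifiers and 11 two-pore-domain (K2P) genes. Kcnu1 is among those 8 by its family, and what opens its channel was not considered. All 81 passed the filter on low counts and were tested among 18956 genes. The 11 genes under the rule had mean counts between 0 for Kcnj1 and 8.17 for Kcne3, with Kcnj15 at 8.0, and the nearest members inside it were Kcnn4 at 20.8 and Kcnk15 at 24.7.

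The libraries are mRNA sequencing of mouse tissue labelled as the paraventricular nucleus of the hypothalamus, a nucleus of neuroendocrine and autonomic neurons. Wild-type mice (WT) gave 3 libraries, of which WT 1 and WT 2 are male and WT F1 is female. Mice lacking Adam17 in their glutamatergic neurons (KO) gave KO 1 and KO 2, which are male, and KO F1, which is female. ADAM17 is a membrane protease that cuts cytokines, growth factors and adhesion proteins off the surface of cells. The labels give no age, strain, treatment, Cre driver or deleted exon, and no statement that the libraries come from separate animals, so p-values measure the spread between these libraries, which may be technical.

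Potassium channels let potassium leave the cell and so set the resting potential, the shape of the action potential and the firing rate of neurons. Voltage-gated channels open on depolarization, calcium- or sodium-activated channels open when those ions enter the cell, inward rectifiers hold the membrane near its resting level and include the channels opened by G proteins, and K2P channels carry leak current. In the paraventricular nucleus, potassium currents are known to shape the firing of neuroendocrine and presympathetic neurons. Auxiliary subunits form no pore but alter the trafficking and gating of the channels they bind.

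What the pore-forming members share is the selectivity filter, the short stretch of the pore that lets potassium through and keeps sodium out. Its coding sequence is shown for members that the results turn on, 1 or more from each pore-forming class, so that the classes can be compared. Sequences are the sense strand of the longest GENCODE M21 coding sequence of each gene (GRCm38), and capitals mark the codons for glycine, the residue between and glycine at the heart of the filter.
Kcnq3: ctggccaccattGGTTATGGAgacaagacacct
Kcnh6: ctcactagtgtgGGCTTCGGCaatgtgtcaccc
Kcnv1: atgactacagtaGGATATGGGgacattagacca
Kcnma1: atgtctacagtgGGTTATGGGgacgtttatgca
Kcnj3: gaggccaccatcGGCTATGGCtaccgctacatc
Kcnk9, first pore: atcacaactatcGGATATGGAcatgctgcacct
Kcnk9, second pore: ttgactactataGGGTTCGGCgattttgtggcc
The pattern searched, in frame, was a codon for threonine or serine, any codon, one for glycine, one for tyrosine, phenylalanine or leucine, and one for glycine. These letters were widened until they covered every family. All 69 pore-forming and silent members held the pattern, a count that follows from this widening. The 12 auxiliary members did not hold it, and 5.78% of 15349 other tested genes with a coding sequence did. The 11 K2P genes, whose subunits carry a pair of pores, each held it 2 times. In their first pore the middle codon was for tyrosine in 8 genes and phenylalanine in 3, and in their second pore it was for tyrosine in 0, phenylalanine in 9 and leucine in 2. Kcna6 and Kcnh2 also held a second match outside the filter.

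Some facts of the libraries bear on every value. Total counts ran from 35114426 to 54421330, so that 3 counts correspond to 0.055 to 0.085 CPM (counts relative to library size), and the members took 0.427% to 0.539% of them. Mitochondrial transcripts made up 20.63% of the counts of KO 1 and 7.22% to 9.2% elsewhere. For Adam17, levels of 17.1, 17.2 and 15.6 CPM in WT and 15.4, 14.6 and 13.9 CPM in KO (libraries 1, 2 and F1) left the difference short of the threshold (log2 difference −0.19, edgeR adjusted p = 0.747), over the whole gene and all cells. The transcripts that define the labelled tissue were low. Mean deposited TPM, a scale per transcript length, was 0.468 for Sim1 and 4.23 for Otp, both factors that define the paraventricular nucleus, and 65.6 and 59.8 for the hormones Avp and Oxt, while the cortical neuron factors Neurod6 and Tbr1 stood at 76.4 and 73.0. Regional markers also differed between single libraries. The 13 cortex and hippocampus markers summed to 1074 CPM in WT F1 and to 1979 to 2670 CPM in the other 5 libraries. The 8 cerebellar markers summed to 497 CPM in WT F1 and 428 CPM in KO 1 against 206 to 254 CPM elsewhere, and the granule cell gene Cbln3 was at 65.5 and 33.5 CPM there and at 0.294 to 2.14 CPM elsewhere. The striatal list of 10 summed to 788 CPM in WT F1 and 1457 to 2368 CPM elsewhere, and the choroid plexus list of 8 to 183 CPM against 348 to 761 CPM. WT F1 and KO 1 thus stood apart in regional content. A genotype difference printed for a gene or class is also given without both where that moved it by over 1.5 times. The setting without both has no sex term and sets the males WT 1 and WT 2 against the male KO 2 and the female KO F1. Sex and regional content cannot be told apart in a value that moved there. Of the members 25 overlap another tested gene, such as Kcnq1 with Kcnq1ot1 and Kcnip1 with Kcnmb1, and their values are uncertain to that extent. In such bulk tissue, fewer cells of a type and less RNA per cell cannot be told apart.

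The families differed widely in level. On the TPM scale the most abundant member was Kcnab2, a cytoplasmic beta subunit of Kv1 channels, at a mean of 365 TPM over the 6 libraries (220 to 408). It was the highest member in all 6 libraries. Kcnc1, a Kv3 channel of fast-spiking neurons, followed at 114 TPM, and the potassium channel interacting protein Kcnip3, which binds Kv4 channels and is also known as the calcium-binding factor DREAM, at 113 TPM. Their library ranges of 90.4 to 136 and 99.5 to 128 TPM overlapped, so their order was not resolved. The same held for Kcnj4, a strong inward rectifier of forebrain neurons, at 109 TPM (47.6 to 137), and for Kcnj10, the Kir4.1 channel through which astrocytes clear potassium, at 105 TPM (83.6 to 123).

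**Figure D1:**
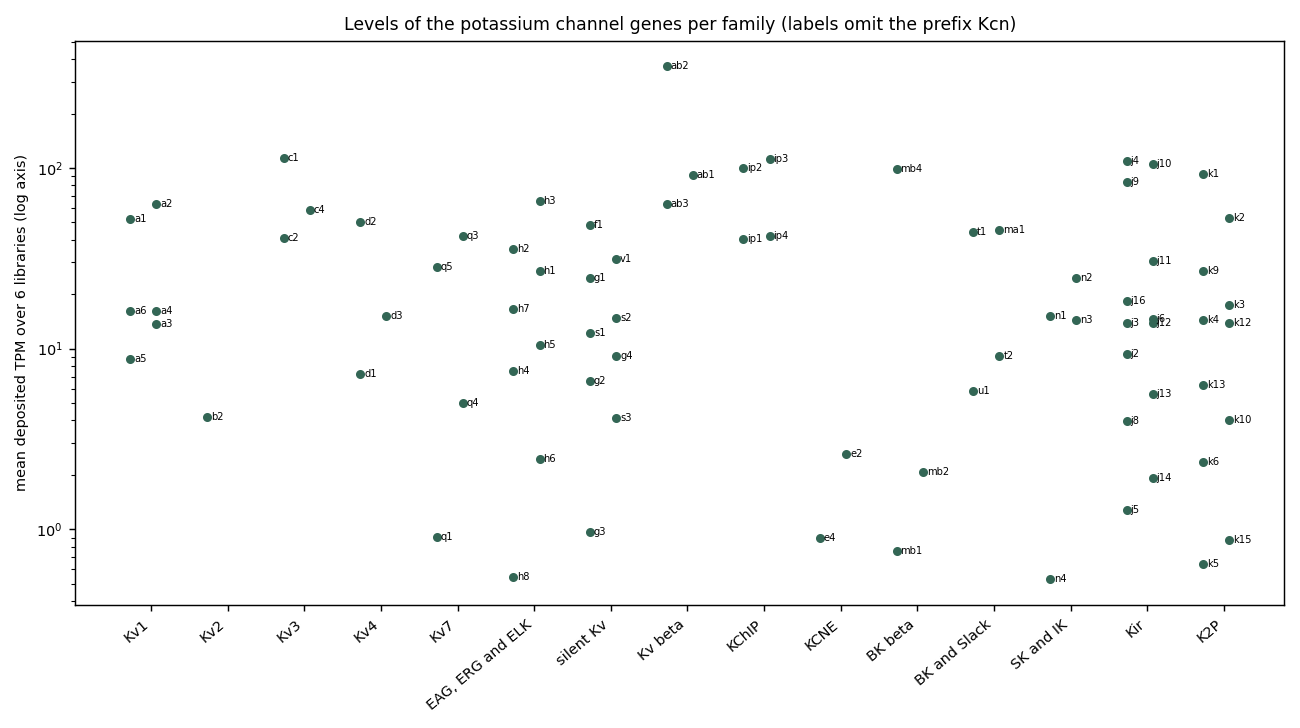
Mean deposited TPM over the 6 libraries (log axis) of 78 of the 81 potassium channel genes, grouped by family, with 1 point per gene labelled without the prefix Kcn. Kcnab2 stands highest at 365 TPM, the K2P genes range from 0.639 to 92.1 TPM, and both KCNE genes lie low.

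Other families had their own most abundant genes. Kcna2 of the Kv1 axonal channels had 63.3 TPM and Kcnd2, the Kv4.2 channel of dendritic A-type current, 50.2 TPM. Kcnh3 led the EAG, ERG and ELK group with 65.8 TPM. Of the silent genes Kcnf1 was highest at 48.0 TPM. Among calcium-activated genes the BK channel Kcnma1 stood at 45.3 TPM, its neuronal beta subunit Kcnmb4 at 98.6 TPM and the SK channel Kcnn2 at 24.4 TPM. Kcnk1 led the K2P genes with 92.1 TPM, and Kcne2, an auxiliary gene known from choroid plexus, led its pair with 2.60 TPM. The lowest members were Kcnn4 with 0.529 TPM and Kcnh8 with 0.545 TPM, each present in all 6 libraries. TPM values of KO 1 were low across the class sums, for example 665 TPM for the voltage-gated alpha genes against 906 to 1060 in the other libraries, beside its mitochondrial share of 20.63%. Their part in that was not tested, and genotypes are compared in CPM scaled by edgeR's TMM method, a trimmed mean.

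The comparison of KO with WT asks whether loss of ADAM17 in glutamatergic neurons altered the expression of these genes. None of the 81 passed the threshold (edgeR quasi-likelihood test, Benjamini-Hochberg adjusted p under 0.05), the smallest adjusted p being 0.735, where 0.00528% of all genes tested passed. DESeq2 also called 0 members, its smallest adjusted p among them being 0.432, where it called 0.396% of all genes. At an unadjusted p under 0.05 there were 5 members (6.17%), near the 6.38% of all genes. The genotypes did not overlap in 9 members (11.1%), fewer in proportion than the 13.9% of all genes. The log2 fold changes, KO minus WT, lay between −0.60 for Kcnj5 and 0.75 for Kcnk15. Above 0 were 46 of 81, with a median of 0.04, where 49.4% of all genes lay above 0 and their median was −0.0036. With library totals in place of TMM the median of all genes moved to −0.17, 27 members lay above 0 and 47 above that median, so directions are relative to the scaling. The 95% intervals stayed within 1 log2 unit of 0 in 73 members and within 0.5 in 23. For those 73 genes a change of 1 log2 unit in either direction lay outside the interval, and the other 8 were Kcng4, Kcnk5, Kcne2, Kcnj5, Kcnh5, Kcnip4, Kcnk15 and Kcne4.

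Marker lists for the cells and regions of the tissue, from the same fit, lay beside these values. All 13 cortex and hippocampus markers lay above 0 (median log2 fold change 0.32), as did all 10 striatal markers (0.37), and by edgeR 0 of either list passed, with 5 and 1 at an unadjusted p under 0.05. Not all of them did so with single libraries left out. Without WT F1, 9 of the 13 cortex and hippocampus markers (median 0.36) and 3 of the 10 striatal markers (−0.17) lay above 0, and without both WT F1 and KO 1 these were 9 (0.08) and 8 (0.06). Of the 11 markers of the paraventricular nucleus 5 lay above 0 (median −0.22), and 0 passed by edgeR. The smallest p among them was that of Scgn, at 1.41 (edgeR unadjusted p = 0.0148, adjusted p = 0.735). Avp stood at −1.36 and Oxt at −1.17 (edgeR adjusted p = 0.735 and 0.744). Without both libraries 4 of the 11 lay above 0 (−0.16), with Scgn at 1.31, Avp at −0.60 and Oxt at −0.68. Ependymal genes lay above 0 in 2 of 7 cases (−0.31, and −0.51 without both libraries). The cerebellar list had 6 of 8 above 0 (0.99), 7 of 8 without WT F1 (2.58) and 0 of 8 without KO 1 (−1.82). Choroid plexus genes had 4 of 8 above 0 (−0.0068) and 0 of 8 without both libraries (−0.53). Pan-neuronal genes lay above 0 in 7 of 10 cases (median 0.07), astrocyte genes in 5 of 10 (0.02), mature oligodendrocyte genes in 3 of 10 (−0.04) and microglial genes in 3 of 9 (−0.19). The lists for glutamatergic and GABAergic neurons, oligodendrocyte precursors, endothelium, mural cells and thalamus had medians between −0.03 and 0.18. That of the thalamus was −0.31 without KO 1. Without both libraries these medians lay between −0.09 for thalamus and 0.21 for mural cells, where 8 of 8 mural genes lay above 0, against 3 of 8 with all libraries. Astrocyte genes then lay above 0 in 7 of 10 cases (0.04) and microglial genes in 3 of 9 (−0.06). The part of these in the differences of the channel genes was not tested.

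**Figure D2:**
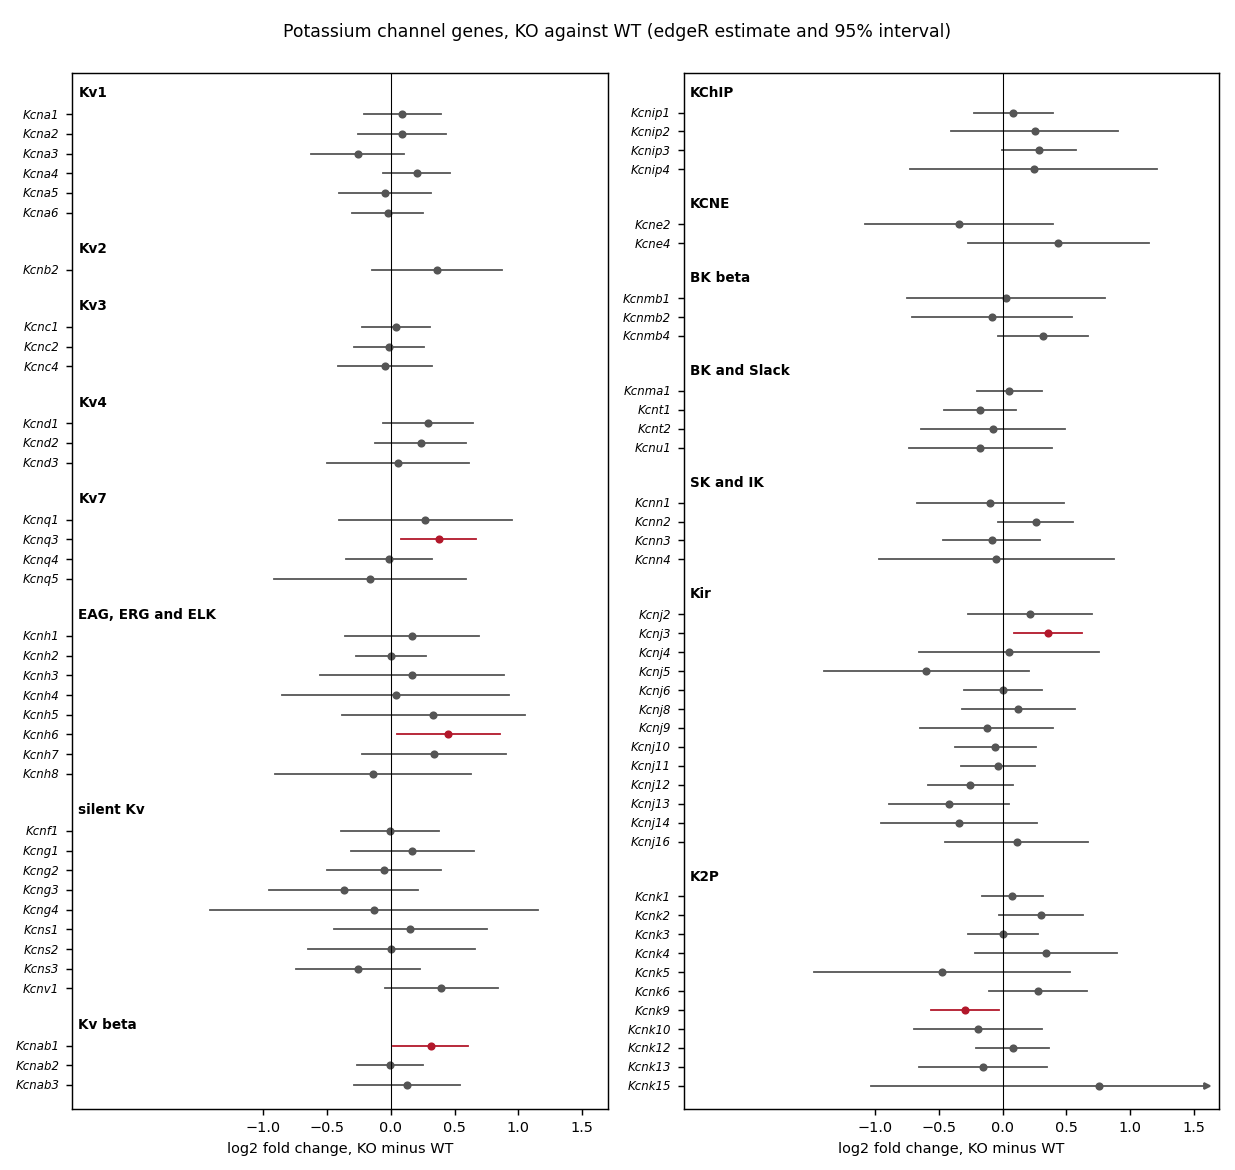
Log2 fold change of 78 of the 81 genes, KO minus WT (x axis), with the edgeR estimate as a point and the 95% interval as a line, grouped by family. The 5 genes in red, Kcnj3, Kcnq3, Kcnh6, Kcnab1 and Kcnk9, have an unadjusted p under 0.05, none passes after adjustment, and the interval of Kcnk15 runs beyond the axis to 2.54.

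Among the voltage-gated pore-forming genes, 18 of 28 had log2 fold changes above 0, and the median was 0.07. Without WT F1 and KO 1 these were 11 of 28 and −0.03. Kcnq3 (ENSMUSG00000056258, chromosome 15, 65986387 to 66286224, minus strand, GRCm38), a subunit of the M current that restrains repetitive firing, stood at 215, 199 and 178 CPM in WT 1, WT 2 and WT F1. In KO 1, KO 2 and KO F1 it stood at 313, 240 and 218 CPM. All 3 KO values lay above the highest WT value, with KO 1 far above the rest. The log2 fold change was 0.38 (SE 0.12, unadjusted p = 0.0198, edgeR adjusted p = 0.735), and it was 0.15 when WT F1 and KO 1 were both left out. Of the other Kv7 genes, Kcnq5 is described with the sexes, and the family had 2 of 5 members above 0.

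Kcnh6 (ENSMUSG00000001901, chromosome 11, 106008124 to 106034549, plus strand), an ERG-type channel, was a low-abundance member at 3.29, 3.09 and 2.90 CPM in WT and 4.34, 3.98 and 4.36 CPM in KO. Here the KO values lay close together and above every WT value, and the means were 3.09 ± 0.19 CPM for WT and 4.23 ± 0.22 CPM for KO (SD, n = 3 each). The log2 fold change of 0.45 (SE 0.17, unadjusted p = 0.0339, edgeR adjusted p = 0.735) was 0.39 without WT F1 and KO 1. In the EAG, ERG and ELK group as a whole 7 of 8 genes lay above 0, with a median of 0.17, but WT F1 held the lowest value in 6 of the 8. With library totals in place of TMM 5 of 8 lay above 0 and the median was 0.01, where that of all genes was −0.17. Without WT F1 and KO 1 only 3 of 8 lay above 0 and the median was −0.04. The direction of the group thus did not hold without those libraries.

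All 3 Kv4 genes, which carry the transient A-type current, lay above 0. So did 2 of 3 both without WT F1 and KO 1 and with library totals, and 1 of 3 on the TPM scale. On that last scale the Kv4 median was −0.07, where the median of all genes was −0.24. Kcnd1 stood at 10.8, 12.8 and 13.0 CPM in WT and 16.7, 15.0 and 13.2 CPM in KO. These groups just failed to overlap, and the log2 fold change of 0.29 (SE 0.15, edgeR adjusted p = 0.744) did not pass. Kcnd2 had 126, 109 and 104 CPM in WT and 164, 115 and 119 CPM in KO, overlapping groups in which KO 1 was the highest library, and its log2 difference of 0.23 was 0.07 without KO 1 and 0.0012 without both WT F1 and KO 1. Kcnd3 was likewise highest in KO 1, at 41.6 CPM, against 23.6 to 33.6 CPM in the other 5 libraries.

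The axonal Kv1 genes split evenly, with 3 of 6 above 0. Kcna1 stood at 92.0, 99.1 and 84.8 CPM in WT and 103, 84.6 and 106 CPM in KO, and Kcna2 at 312, 336 and 297 against 389, 273 and 343 CPM. In both genes the KO range enclosed the WT range. Kcna3, a Kv1 channel of neurons and immune cells, had 12.2, 13.5 and 13.2 CPM in WT and 8.79, 11.6 and 12.2 CPM in KO, where KO F1 lay just under WT 1, and a log2 fold change of −0.26 (SE 0.15, edgeR adjusted p = 0.747). KO 1 was its lowest library, and the Kcna3 difference was −0.13 without KO 1 and −0.11 without both WT F1 and KO 1. Of the Kv3 genes, which allow fast spiking, Kcnc1 stood at 254, 274 and 301 against 311, 259 and 280 CPM, and its 95% interval ran from −0.23 to 0.30.

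Silent subunits do not form channels alone but join Kv2 subunits and change their gating. Of these 9 genes 4 lay above 0, with a median of −0.01, and without WT F1 and KO 1 also 4, with a median of −0.05. Kcnv1 stood at 68.3, 70.1 and 38.2 CPM in WT and 91.1, 65.6 and 68.1 CPM in KO. Only WT F1 was low and only KO 1 was high, so the log2 fold change of 0.40 (SE 0.18, edgeR adjusted p = 0.735) turned to −0.05 without those libraries. Kcng3, at 2.05, 1.44 and 1.55 CPM in WT and 1.29, 1.39 and 1.23 CPM in KO, had no overlap and a log2 fold change of −0.37 (SE 0.24, edgeR adjusted p = 0.77). Kcns3 stood at 4.44 to 6.41 CPM in WT and 4.13 to 5.27 CPM in KO.

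**Figure D3:**
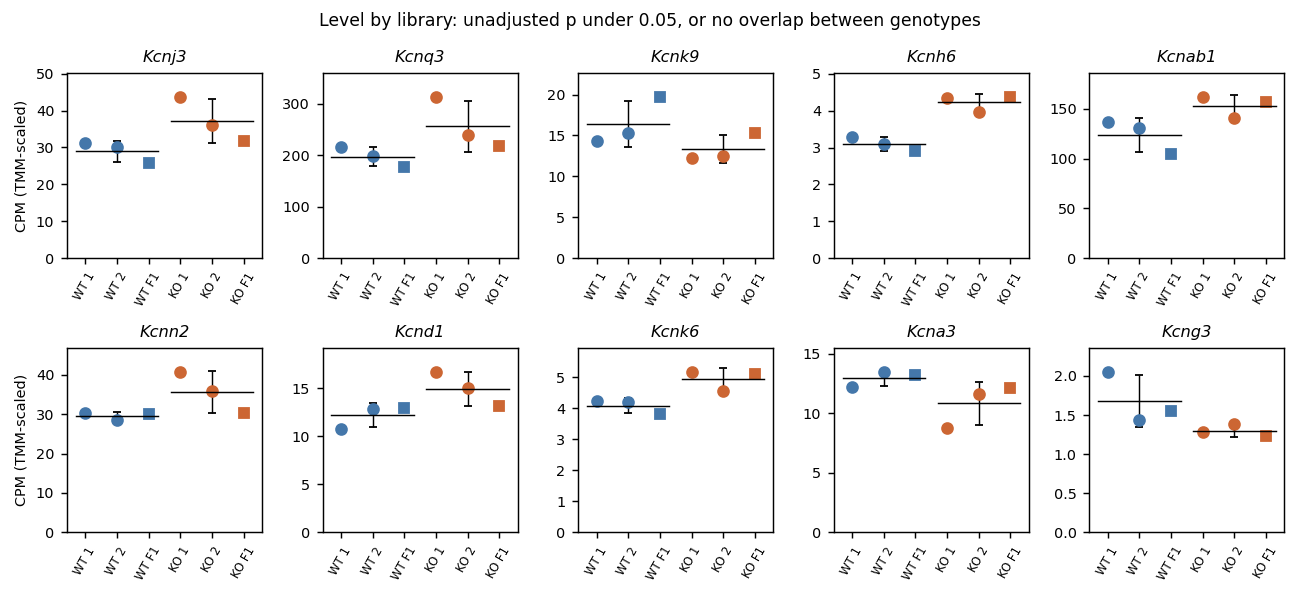
CPM (TMM-scaled) in each library for the 10 genes with an unadjusted p under 0.05 or no overlap between the genotypes, WT in blue and KO in orange, circles for males and squares for females, with a line at the mean and bars of 1 SD over 3 libraries. In Kcnj3, Kcnq3 and Kcnn2 the KO mean is raised most by KO 1, whereas the 3 KO values of Kcnh6 lie within 3.98 to 4.36 CPM.

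Auxiliary genes lay above 0 in 9 of 12 cases, with a median of 0.19, and in 8 of 12 with a median of 0.05 without WT F1 and KO 1. Kcnab1 (ENSMUSG00000027827, chromosome 3, 65109384 to 65378223, plus strand), a beta subunit that speeds the inactivation of Kv1 channels, had 137, 131 and 104 CPM in WT and 162, 140 and 157 CPM in KO. The groups did not overlap, although WT 1 and KO 2 were close. An antisense transcript within it, A330015K06Rik, had a mean of 64.8 counts. Its log2 fold change of 0.31 (SE 0.12, unadjusted p = 0.0402, edgeR adjusted p = 0.735) fell to 0.17 without WT F1 and to 0.16 without both WT F1 and KO 1. By contrast Kcnab2, the most abundant member, averaged 411 ± 21.8 CPM over the WT and 410 ± 38.6 CPM over the KO libraries (SD, n = 3 each), with a 95% interval from −0.26 to 0.25.

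All 4 potassium channel interacting proteins, the calcium-binding partners of Kv4, lay above 0 with a median of 0.25, as 3 of 4 did with library totals or without WT F1 and KO 1, and 0 of 4 on the TPM scale. Without WT F1 and KO 1 their median was 0.05. On the TPM scale it was −0.08, where the median of all genes was −0.24. Kcnip3 stood at 128, 150 and 114 CPM in WT and 195, 160 and 128 CPM in KO, overlapping groups (log2 difference 0.29, SE 0.12, unadjusted p = 0.0516, edgeR adjusted p = 0.735). The Kcnip3 difference was 0.19 without KO 1 and 0.05 without both WT F1 and KO 1. Kcnip4 had 42.4, 37.5 and 51.6 CPM in WT and 86.5, 34.4 and 37.3 CPM in KO. Its KO mean was thus set by KO 1 alone, and the other KO libraries lay at or below the lowest WT library. Kcnmb4, the neuronal beta subunit of BK channels, had 55.2, 57.4 and 34.8 CPM in WT against 56.8, 66.4 and 56.2 CPM in KO, where WT F1 alone was low (log2 difference 0.32, SE 0.15, edgeR adjusted p = 0.735). The Kcnmb4 difference was 0.13 without WT F1, and 0.13 without both WT F1 and KO 1.

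Genes of the calcium- or sodium-activated families lay above 0 in 2 of 8 cases, with a median of −0.08. Without WT F1 and KO 1 these were 1 of 8 and −0.13. Kcnma1, whose BK channels repolarize the action potential, averaged 93.3 ± 2.37 CPM over the WT and 96.9 ± 11 CPM over the KO libraries (SD, n = 3 each), and its 95% interval ran from −0.20 to 0.31. Kcnt1, a sodium-activated channel, had 93.9, 94.9 and 89.5 CPM against 71.2, 83.0 and 92.5 CPM, overlapping groups with KO 1 lowest. The SK genes encode channels of the medium afterhyperpolarization that follows calcium entry. Kcnn2 had 30.2, 28.6 and 29.9 CPM in WT and 40.8, 35.8 and 30.3 CPM in KO in which KO F1 lay just above WT 1, and a log2 fold change of 0.26 (SE 0.12, edgeR adjusted p = 0.735), which was 0.17 without WT F1 and KO 1. Kcnn3 stood at 32.7 to 43.4 CPM in WT and 33.4 to 42.4 CPM in KO.

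Inward rectifiers lay above 0 in 6 of 13 cases, with a median of −0.03, and again in 6 of 13, with a median of −0.11, without WT F1 and KO 1. Kcnj3 (ENSMUSG00000026824, chromosome 2, 55435970 to 55598145, plus strand) encodes GIRK1, a subunit of the channels that G-protein-coupled inhibitory receptors open. It stood at 31.1, 30.0 and 25.7 CPM in WT and 43.6, 36.1 and 31.8 CPM in KO. The groups did not overlap, with KO F1 just above WT 1. This gene had the smallest p of all members (log2 difference 0.36, SE 0.11, unadjusted p = 0.0173, edgeR adjusted p = 0.735), and the value was 0.15 without WT F1 and KO 1. A transcript on the opposite strand, Gm26794, overlaps 1891 bases of it with a mean of 965 counts, and because the strand setting of the counting is not given here, reads of the pair may not be separated. The other GIRK subunit genes had overlapping groups or a wide interval. Kcnj6 averaged 20.9 ± 3.97 CPM over the WT and 20.7 ± 0.72 CPM over the KO libraries (SD, n = 3 each), with an interval from −0.31 to 0.31. Kcnj9 had 155, 168 and 114 CPM in WT and 99.9, 142 and 157 CPM in KO, and Kcnj5 had 2.96, 2.03 and 2.99 CPM against 2.36, 1.07 and 1.86 CPM (log2 difference −0.60, SE 0.34, edgeR adjusted p = 0.745). No test was made of whether Kcnj3 differed from these.

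The glial and metabolic rectifiers had overlapping groups. Kcnj10 had 257, 273 and 281 CPM in WT and 308, 230 and 243 CPM in KO, and its 95% interval ran from −0.38 to 0.26. Its astrocytic partner Kcnj16 had 26.0, 27.8 and 38.2 CPM in WT and 42.6, 30.4 and 26.1 CPM in KO. The Kcnj16 log2 difference of 0.11 had a wide 95% interval, from −0.45 to 0.67. It was 0.44 in males only and 0.07 without WT F1 and KO 1. WT F1 and KO 1 were the 2 highest libraries for both genes. Kcnj11, the pore of ATP-sensitive channels in neurons, averaged 38.6 ± 2.05 CPM in WT and in KO 37.9 ± 4.95 CPM, and Kcnj8, its counterpart in blood vessel mural cells, 4.50 ± 0.84 and 4.87 ± 0.72 CPM (SD, n = 3 each). Kcnj13, a rectifier known from choroid plexus, had 3.56, 4.71 and 3.02 CPM in WT and 3.37, 3.06 and 2.08 CPM in KO (log2 difference −0.42, SE 0.20, edgeR adjusted p = 0.735), and the difference was −0.68 without WT F1 and KO 1. It lies within Gigyf2 on the other strand, which had a mean of 2950 counts, and the choroid plexus list differed between libraries as given above, and the part of either was not tested. Kcnj12 and Kcnj14 lay at −0.25 (SE 0.14) and −0.34 (SE 0.26) on the log2 scale, with overlapping groups, and Kcnj12 at −0.15 without WT F1 and KO 1.

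The K2P leak channels lay above 0 in 7 of 11 cases, with a median of 0.08. Kcnk9 (ENSMUSG00000036760, chromosome 15, 72512119 to 72546279, minus strand), the acid-sensitive TASK-3 channel, had the smallest p on the lower side. It stood at 14.3, 15.3 and 19.7 CPM in WT and at 12.2, 12.4 and 15.3 CPM in KO. The highest KO library overlapped the WT range, and both female libraries were the highest of their genotype. The log2 fold change was −0.30 (SE 0.11, unadjusted p = 0.0334, edgeR adjusted p = 0.735), and −0.09 without WT F1 and KO 1, a setting with no sex term in which KO F1 is the only female. Kcnk2, the mechanosensitive TREK-1 channel, had 68.3, 52.3 and 42.9 CPM in WT and 72.3, 67.0 and 60.4 CPM in KO, overlapping groups (log2 difference 0.30, SE 0.14, edgeR adjusted p = 0.735), and its difference was 0.21 without WT F1 and 0.08 without both. Kcnk1 was the most precisely measured member, at 98.6, 94.5 and 79.0 CPM in WT and 96.8, 94.9 and 94.0 CPM in KO, with an interval from −0.16 to 0.31. Kcnk13, a channel known from microglia, averaged 9.42 ± 2.19 CPM over the WT and 8.40 ± 1.5 CPM over the KO libraries (SD, n = 3 each). Kcnk6 had no overlap, at 3.82 to 4.24 CPM in WT and 4.56 to 5.18 CPM in KO.

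Females and males were compared in the same model, in which 2 female libraries stand against 4 male ones. None of the 81 members passed (edgeR; 0.0422% of all genes did), and DESeq2 also called 0. At an unadjusted p under 0.05 there were 9 members (11.1%, 3 higher and 6 lower in females), where 4.58% of all genes had such a p. That count was 3 without WT 1, 1 without WT 2, 4 without WT F1, 14 without KO 1 and 20 without KO F1. Kcne2 differed most, with a log2 difference, female minus male, of −1.44 (SE 0.35, unadjusted p = 0.00506, edgeR adjusted p = 0.941). It stood at 3.38, 2.97, 2.71 and 1.54 CPM in the males WT 1, WT 2, KO 1 and KO 2 and at 0.88 and 1.03 CPM in the females WT F1 and KO F1. Both females were below all males. Ttr, the chief transcript of choroid plexus, was likewise lowest in the 2 females, at 135 and 289 CPM against 359 to 667 CPM. Folr1 and Kl of the choroid plexus list were too, but Otx2, Clic6, Tmem72, Prlr and Slc4a5 were not. For example, Otx2 stood at 2.59 CPM in the male KO 2 and at 5.32 CPM in KO F1. The part of choroid plexus content in the Kcne2 difference was not tested. Kcnk9 was higher in females by 0.36 on the log2 scale (SE 0.11, unadjusted p = 0.0181, edgeR adjusted p = 0.941).

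Whether the genotype difference itself differed between the sexes rests on 1 female library per genotype and 2 residual degrees of freedom. Where a male library is left out, its genotype keeps 1 male and 1 female, and 1 residual degree of freedom remains. Counts from such fits are therefore not comparable to those of the full fit. With edgeR 0 members passed, where 0.0739% of all genes did. At an unadjusted p under 0.05 there were 16 members (19.8%, 12 with a higher and 4 with a lower difference in females), where 7.42% of all genes had such a p. DESeq2 called 5 members (6.17%, all higher), among them Kcnq5, Kcnh5, Kcns2 and Kcnh1, where it called 1.25% of all genes. Leaving out KO 2 gave 19 members past the edgeR threshold (16 higher, 3 lower), where 7.71% of all genes passed, and leaving out KO 1 gave 7 members, all higher, where 1.68% passed.

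The members described here that DESeq2 called were low in WT F1. Kcnh1 and Kcnh5 are EAG-type channels in which WT F1 alone was far below the other libraries. Kcnh1 stood at 99.9, 103 and 56.1 CPM in WT and 84.4, 94.5 and 103 CPM in KO. Its genotype difference was −0.18 in males, and the female difference exceeded it by 1.06 on the log2 scale (SE 0.22, edgeR adjusted p = 0.301). Kcnh5 stood at 21.7, 22.8 and 9.61 CPM against 21.1, 19.0 and 24.2 CPM. Kcns2, a silent partner of Kv2, stood at 34.7, 35.9 and 18.7 CPM in WT and 23.6, 28.9 and 34.6 CPM in KO. Kcnq5, an M-current subunit, was low in 3 libraries, with 110, 89.0 and 64.0 CPM in WT and 64.3, 62.5 and 114 CPM in KO, so that its males were lower in KO while its females were higher. WT F1 is also the library with the lowest sums of the cortex and hippocampus and striatal lists, and the part of regional content in these differences was not tested.

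**Figure D4:**
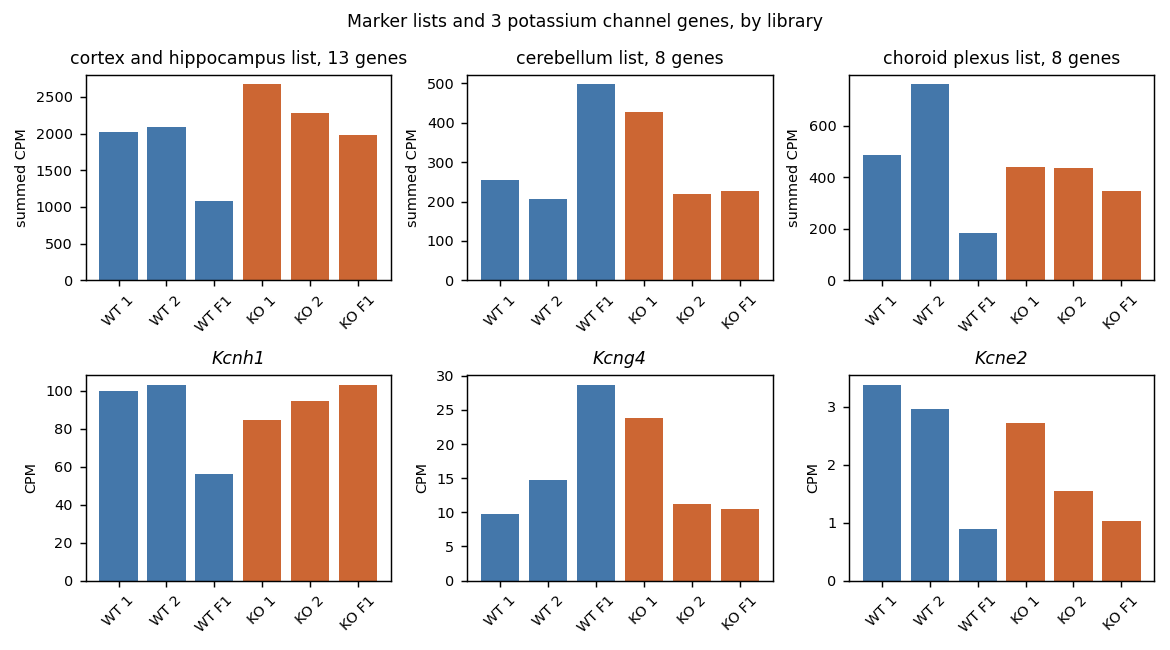
Summed CPM of 3 marker lists (upper row) and CPM of Kcnh1, Kcng4 and Kcne2 (lower row) in each library, WT in blue and KO in orange, with bars from 0. Kcnh1 and the cortex and hippocampus list are both lowest in WT F1, Kcng4 and the cerebellum list are both highest in WT F1 and KO 1, and Kcne2 and the choroid plexus list are both lowest in WT F1.

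Across the members, WT F1 held the lowest of the 6 values in 29 of 81 genes (35.8%), where it did so in 20.4% of all genes tested. KO 1 held the highest value in 24 members (29.6%), close to its 28.3% of all genes. WT F1 and KO 1 were together the 2 lowest libraries in 13 members (16.0%, against 10.5% of all genes) and the 2 highest in 9 (11.1%, against 9.71%). In the first set were Kcnh4, at 7.22 and 8.82 CPM in these libraries and 13.6 to 17.1 CPM in the others, Kcnh3, Kcnip2, Kcnj4 and Kcnj9. The mean of these named genes in WT F1 and KO 1 was 0.525 to 0.688 of that in the other 4 libraries. Over all 13 members of the set this ratio ran up to 0.886, for Kcnab2. In the second set Kcng4, a silent subunit, stood out at 28.7 and 23.8 CPM against 9.83 to 14.7 CPM, a ratio of 2.27, followed by Kcnip4 with 1.82. The cerebellar list was highest in these same libraries, as given above. These pairs were picked after their values were seen and were not tested.

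**Figure D5:**
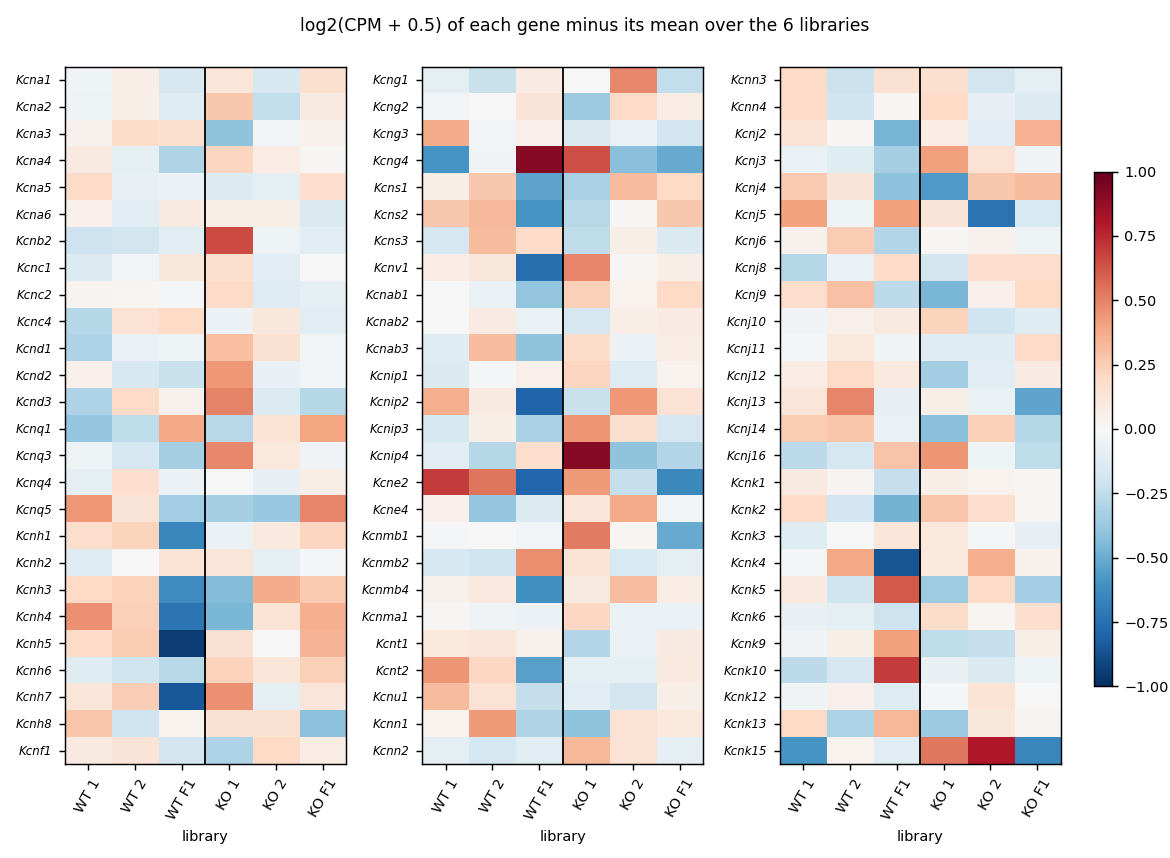
Log2(CPM + 0.5) of 78 of the 81 genes minus its mean over the 6 libraries, with WT libraries left and KO libraries right of the line, red above and blue below the mean, and colours ending at 1 log2 unit. The columns of WT F1 and KO 1 hold most of the deep colours, and no block of genes separates the 3 WT from the 3 KO columns.

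Other genes whose products bind, traffic or modify these channels were tested in the same fit. Of 34 other genes of potassium channel complexes 33 were tested, 20 above and 13 below 0, and their median was 0.06. Without WT F1 and KO 1 these were 17 of 33 above 0 and a median of 0.0017. By edgeR with all 6 libraries 0 passed, 4 had an unadjusted p under 0.05 and 5 had no overlap. Of all genes tested, 6.38% had such a p and 13.9% had no overlap. The smallest p belonged to Nedd4l, a ubiquitin ligase that limits M-current channels, at 159, 147 and 120 CPM in WT and 217, 166 and 164 CPM in KO (log2 difference 0.37, edgeR adjusted p = 0.735), and its difference was 0.11 without WT F1 and KO 1. Next was Cntn2, which anchors Kv1 channels beside the node of Ranvier, at 182, 157 and 183 CPM against 114, 147 and 143 CPM (−0.37, edgeR adjusted p = 0.735, and −0.22 without WT F1 and KO 1). Both genes had groups without overlap. Of the 10 hyperpolarization-activated and cyclic-nucleotide-gated relatives 8 were tested, 4 above and 4 below 0, and by edgeR 0 passed while 2 had an unadjusted p under 0.05. These were the low-abundance genes Cngb1 (log2 difference −1.18, edgeR adjusted p = 0.735) and Cnga3 (−1.02, edgeR adjusted p = 0.735). Cnga1 and Cngb3 had at most 3 counts in any library.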

How the data were processed

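The authors deposited, per the file headers, whole-number counts, TPM and FPKM per Ensembl gene and library. The counts carried all main tests, the TPM values gave levels between genes, and the FPKM values were only checked to be a constant multiple of TPM. The submitters' processing notes name Trimmomatic 0.36, FastQC 0.11.2 and bedtools 2.26.0. Which aligner, counter, strand setting and build were used is not given in the sources used here. All 81 members matched GENCODE M21 (GRCm38), 70 with identical coordinates, so coordinates are read as GRCm38.

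Genes were kept with filterByExpr by genotype and scaled by TMM. Genotype and sex were terms of robust quasi-likelihood fits in edgeR 4.0.16 (R 4.3.3), and their product was added for the interaction. Adjusted p-values are Benjamini-Hochberg over all 18956 genes, with a threshold of 0.05. Alternatives used DESeq2 1.42.0, limma 3.58.1, other filters and scalings, and left-out libraries.

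The members, lists and alternatives were chosen with earlier results of these data known. Named genes were the 10 smallest p-values per direction, the highest TPM per family, those nearest the count rule, a set of well-known channels, and 2 genes per partner list. Genes named for sex, for the interaction or for single libraries were chosen after their values were seen. The labels do not say whether replicate numbers pair the samples, and the main fits did not use them as pairs. Some members that these rules pick are not reported here and not drawn in the figures, but they enter the counts.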

Additional observations from a re-analysis of the deposited data

How the results depend on the processing

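In the 18 alternatives to the KO versus WT test, 0 members passed the threshold, and the smallest adjusted p among them was 0.381. With the replicate block, 0 members passed, 4 had an unadjusted p under 0.05, 45 lay above 0 and their median was 0.02. Whether the numbers pair the libraries is not known from the labels. Same-numbered deviations from the genotype means correlated at 0.0102, 0.0796 and 0.153. These values cannot settle it, since WT F1 and KO 1 stood apart in regional content. The count of members at an unadjusted p under 0.05, 5 as reported, was 3 with library totals, 8 in males only, 3 by limma-trend on log2(TPM + 1), 8 by voom with sample quality weights, and 1 to 9 when each library was left out in turn (lowest without WT 2, highest without KO 2). With libraries left out, the same count for the sexes ran from 1 to 20, and for genotype by sex from 14 without WT 2 to 37 without KO 2. The count above 0, 46 as reported, was 27 with library totals and 16 by limma-trend. The median, 0.04 as reported, was −0.14 and −0.21 in those settings, where the median of all genes was −0.17 and −0.24, and 47 and 43 members lay above it. With WT F1 and KO 1 both left out, 38 members lay above 0 and the median was −0.01. Kcnip3 turned to −0.0033 by limma-trend and Kcnv1 to −0.048 without WT F1 and KO 1. The genotype by sex count, 0 as reported, was 5 by DESeq2 and 0 to 19 with libraries left out, being 7 without KO 1 and 19 without KO 2, and the cause was not tested. The interaction could not be fitted without either female library or in males only, since 1 female stands in each genotype. Each interaction fit without a male library had 1 residual degree of freedom. Depth limits few members, since 3 have means under 1 CPM and 15 are over 100 CPM. Standard errors ran from 0.0996 to 0.748 (median 0.185).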

Other observations

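A side column of the deposited table, with no stated origin, lists 220 distinct symbols, and 75 of the 81 potassium channel genes are among them. Genes named after potassium channels but outside the naming rule were not members: Kcnq1ot1, a noncoding antisense RNA, had a mean of 464 counts, Kcnq1 itself had 50.2, and Kcne1l had 352. Averaged over the 81 members, log2(CPM + 0.5) was 4.62, 4.64 and 4.47 in WT 1, WT 2 and WT F1 and 4.64, 4.62 and 4.59 in KO 1, KO 2 and KO F1, so that WT F1 was the lowest library and the other 5 lay within a narrow range.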
